A study of Xenopus laevis with 8 samples.

Results

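The experiment described here is the depletion of Pinhead in marginal zone explants of Xenopus laevis gastrulae. It comprised 4 of the 8 RNA-seq samples of the study, chosen by their titles: PhSpMo samples 1 and 2, and control marginal zone samples 1 and 2. PhSpMo explants came from embryos in which each blastomere had received 40 ng of PhSpMo, a morpholino against pinhead, when the embryo had 4 cells. Control marginal zone explants came from untreated embryos. The sample labels place all 4 samples at stage 10.5, while the text of the series gives stage 11. The other arm of the study compared ectoderm explants given 1.5 ng of Flag-Pinhead RNA with untreated ectoderm explants at stage 11, and is used below only to set values side by side. A control morpholino was not analysed here, so depletion of Pinhead and the injection itself cannot be told apart. The labels do not say if replicates were taken from different clutches or dissections, so the spread behind the p-values may be technical only.

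The marginal zone is the ring of cells between the animal ectoderm and the vegetal endoderm of the gastrula, and it gives rise to the mesoderm under Nodal, FGF, Wnt and BMP signals. Pinhead is a secreted protein made in the gastrula. A morpholino is a chemically modified antisense oligonucleotide that blocks the translation or the splicing of its target RNA, so the level of the target RNA is no measure of how much protein is left. Xenopus laevis is an allotetraploid, and most genes come as a pair of homeologs, a copy on an L and a copy on an S chromosome.

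The samples held 14239916 and 14415419 counts in PhSpMo explants, against 12551618 and 14971466 counts in control marginal zone explants. Each sample was deposited as 2 columns of counts. The PhSpMo samples differed from each other by a mean chi-square per gene of 1.43, within the 1.29 to 1.46 found between the columns of single samples elsewhere in the study, against 2.05 between the control marginal zone samples. The columns named for PhSpMo sample 1 and those named for sample 2 differed by 2.38 and 2.44, more than columns with the same last digit in both samples, which differed by 1.3 and 1.36. The PhSpMo samples were therefore added and counted as 1 sample in every test, and the closeness of their 2 values below is no measure of replicate error. All p-values rest on the assumption that PhSpMo explants vary as the other groups do, with 3 residual degrees of freedom before information was shared between genes. Those groups were not alike in spread. The mean chi-square per gene was 11.9 between the Flag-Pinhead samples and 2.27 between the control ectoderm samples. When the PhSpMo columns were regrouped by last digit and counted as 2 samples, 5058 genes were called, and these included 1820 of the 1828 genes called higher and 2309 of the 2325 called lower below.

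The targeted gene was lower in PhSpMo explants. The S copy, pnhd.S (LOC108706889), had 31.5 and 35.5 CPM (counts per 1000000 after normalization of library sizes) in PhSpMo explants, against 78.3 and 82.0 CPM in control explants. Both PhSpMo samples lay below both controls, and the log2 fold change was -1.25 with an SE of 0.12 (adjusted p 1.02e-08, edgeR's quasi-likelihood test with Benjamini-Hochberg adjustment over all genes). The L copy, pnhd.L, had 54.4 and 50.9 CPM in PhSpMo explants, against 91.9 and 87.4 CPM in control explants, which is -0.76 on the log2 scale with an SE of 0.20 (adjusted p 0.00791 by the same test). The call of pnhd.L was lost with DESeq2, with a robust estimate of the spread, and without either control sample.

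Of 22241 genes tested, 4153 (18.7%) were called at an adjusted p under 0.05: 1828 (8.22%) were higher and 2325 (10.5%) lower in PhSpMo explants. Most of these changes were small. The median log2 fold change was 0.54 among genes called higher and -0.51 among genes called lower, and changes of less than 1.5-fold made up 56.0% of the higher and 56.4% of the lower genes. Changes of at least 2-fold numbered 329 genes higher (1.48%) and 504 lower (2.27%), and changes of at least 4-fold numbered 145 higher and 138 lower. Having both PhSpMo samples on 1 side of both controls was common, at 62.4% of all genes tested (29.8% above and 32.7% below), so lack of overlap alone says little about a gene here. The count of calls depended on the control samples: it was 2672 without control marginal zone sample 1 and 2471 without sample 2. It also depended on scaling, since counts scaled to library totals alone gave 2620 genes higher and 1740 lower, which is 60.1% higher against 44.0% in the main test.

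**Figure D1:**
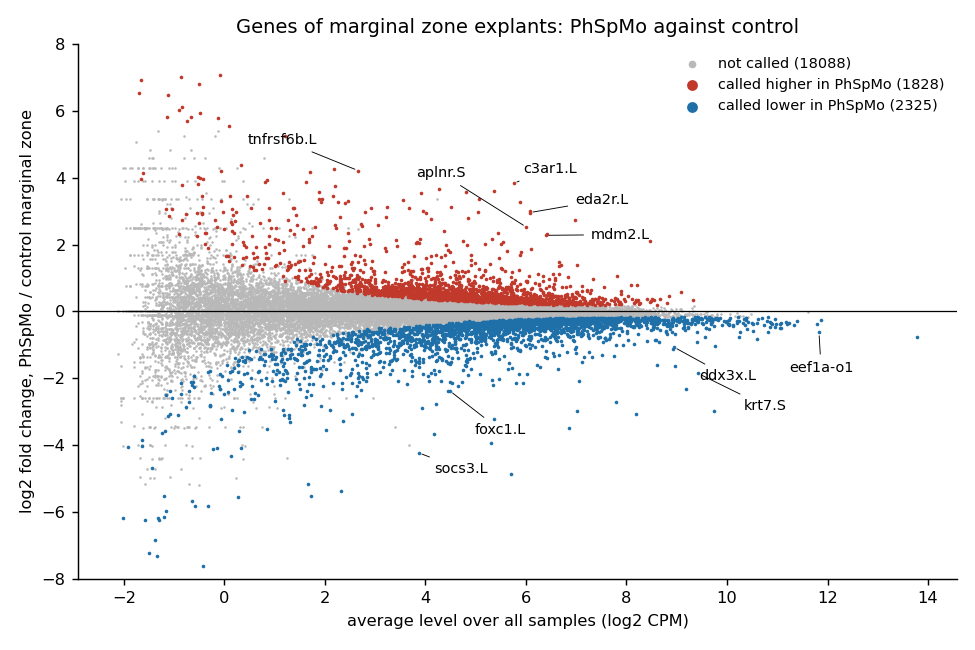
Log2 fold change of PhSpMo over control marginal zone explants (vertical axis) against the average level over all samples in log2 CPM (horizontal axis), with 1 point per gene tested. Red points mark the 1828 genes called higher and blue points the 2325 called lower, and the blue points dominate among the most abundant genes.

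The direction of the calls differed with abundance, taken as the average level over all groups, ectoderm included. Among the 594 genes with an average level of at least 8 log2 CPM, 272 (45.8%) were lower and 23 (3.87%) higher in PhSpMo explants, with a median log2 fold change of -0.16. Between 4 and 6 log2 CPM, 12.2% of 6371 genes were lower and 13.2% higher. Scaled to library totals, 195 of the 594 most abundant genes were lower and 40 higher.

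The clearest group of genes higher in PhSpMo explants was that of the DNA damage response. In vertebrate cells this response switches on cell cycle inhibitors, sestrins, death receptors and the ubiquitin ligase Mdm2. Of 35 tested members of a list of such genes, 12 (34.3%) rose and 5 (14.3%) fell, against 8.22% and 10.5% of all genes. The list's median log2 fold change was 0.17, against 0.00 over all genes. A small set of genes carried the largest changes, and 7 members rose by at least 2-fold. DESeq2 called 11 members higher and 4 lower.

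Within that list, mdm2.L (LOC108711092) had 129 and 133 CPM in PhSpMo explants, against 25.5 and 28.8 CPM in control explants, and the groups were far apart. Its log2 fold change was 2.28 (SE 0.09, adjusted p 3.69e-16, edgeR's quasi-likelihood test with Benjamini-Hochberg adjustment, as for all adjusted p-values below). The gene of the cell cycle inhibitor p21, cdkn1a.L, had 25.1 and 22.1 CPM in PhSpMo explants, against 2.58 and 3.54 CPM in control explants (log2 fold change 2.94, SE 0.18, adjusted p 4.44e-12). Cyclin G1, encoded by ccng1.S, is induced by DNA damage and acts on Mdm2. It had 81.2 and 78.7 CPM in PhSpMo explants, against 8.36 and 11.6 CPM in control explants (log2 fold change 3.0, SE 0.11). The death receptor gene eda2r.L (LOC108704520) had 106 and 99.9 CPM in PhSpMo explants, against 12.5 and 14.1 CPM in control explants (log2 fold change 2.96, SE 0.10). All 4 genes stood at well over 4 times their control level in both PhSpMo samples.

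Sestrin 1, a stress protein that restrains the growth kinase complex mTORC1, rose in both copies. The copy sesn1.S (LOC108717942) had 26.0 and 25.5 CPM in PhSpMo explants, against 3.05 and 2.95 CPM in control explants, a log2 fold change of 3.11, and sesn1.L had 38.4 and 35.1 CPM, against 10.2 and 8.58 CPM, a log2 fold change of 1.99. The Polo-like kinase gene plk2.L had 93.3 and 90.2 CPM in PhSpMo explants, against 19.5 and 17.5 CPM in control explants (log2 fold change 2.32). Not every member moved this way. The antiproliferative gene btg2.S had 4.80 and 4.04 CPM in PhSpMo explants, against 8.98 and 11.3 CPM in control explants (log2 fold change -1.2). The genes ccng2.S, plk3.L, gadd45g.L and sesn2.L fell as well, while the other copy, sesn2.S (LOC443672), rose by 0.99 on the log2 scale. The fall of plk3.L was not called without control sample 1, nor by DESeq2, and that of sesn2.L not without control sample 2.

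**Figure D2:**
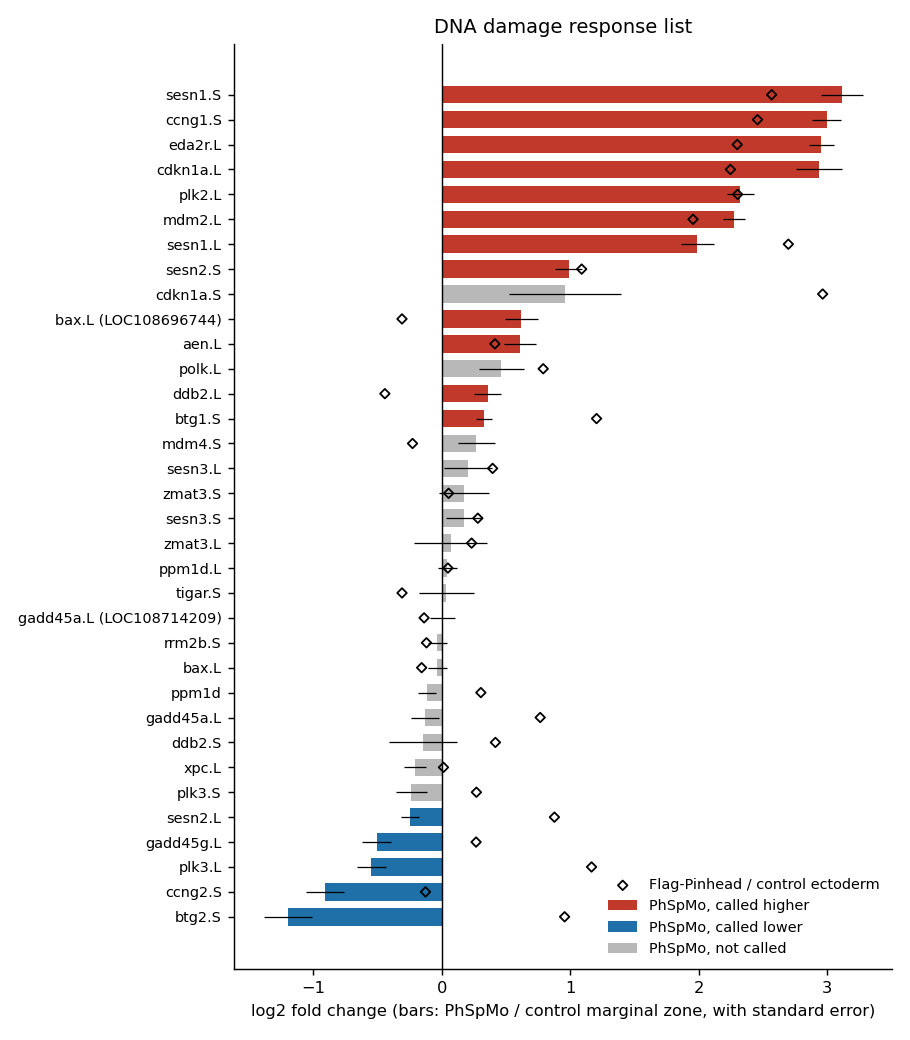
Log2 fold changes of the DNA damage response list: bars show PhSpMo over control marginal zone explants with the standard error, and open diamonds show Flag-Pinhead over control ectoderm explants. The member gadd45b.L, with at most 0.31 CPM in each marginal zone sample, is left out; 7 members lie near or above a log2 fold change of 2 in PhSpMo explants, led by sesn1.S at 3.11.

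Both copies of foxo3, a transcription factor of stress and nutrient withdrawal, rose: foxo3.S had 61 and 61.7 CPM in PhSpMo explants, against 26.3 and 25.3 CPM in control explants (log2 fold change 1.26), and foxo3.L had 50.6 and 52.0 CPM, against 23.8 and 26.9 CPM (log2 fold change 1.02). The autophagy-starting kinase gene ulk1 rose in both copies as well. The copy ulk1.S (LOC108707144) had 43.9 and 42.5 CPM in PhSpMo explants, against 6.09 and 5.11 CPM in control explants (log2 fold change 2.96, SE 0.13, adjusted p 5.34e-15), and ulk1.L had 19.7 and 23.2 CPM, against 4.84 and 4.78 CPM (log2 fold change 2.17). The gene of the autophagosome protein LC3, map1lc3a.L, had 13.9 and 12.3 CPM in PhSpMo explants, against 4.30 and 4.13 CPM in control explants (log2 fold change 1.65). Of the autophagy list as a whole, 4 of 42 genes tested (9.52%) rose and 3 (7.14%) fell, near the 8.22% and 10.5% of all genes, with a median log2 fold change of -0.04 that was 0.04 when counts were scaled to library totals.

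Of 251 ubiquitin ligase genes of the Trim, Rnf and Fbxo families, 33 (13.1%) rose and 23 (9.16%) fell, against 8.22% and 10.5% of all genes. The median log2 fold change was 0.11. Scaled to library totals, 43 rose and 15 fell. The first of these, rnf169.L, belongs with rnf168.L to a ligase pair that acts on chromatin at DNA breaks. It had 131 and 136 CPM in PhSpMo explants, against 40.6 and 42.9 CPM in control explants (log2 fold change 1.68, SE 0.09), and rnf168.L had 80.0 and 76.5 CPM, against 42.3 and 41.4 CPM (log2 fold change 0.91). The substrate receptor gene fbxw7.L, which directs cyclin E and Myc to the proteasome, had 39.2 and 38.9 CPM in PhSpMo explants, against 15.6 and 13.2 CPM in control explants (log2 fold change 1.45). Of 68 proteasome genes, 0 were called higher and 6 (8.82%) lower, the latter near the 10.5% of all genes.

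Cell cycle genes moved in both directions. Of 61 cyclin and mitotic kinase genes, 12 (19.7%) rose and 15 (24.6%) fell, and the median log2 fold change of -0.02 turned to 0.05 with scaling to library totals, where 15 rose and 9 fell. The S-phase and mitotic cyclin gene ccna2.S had 399 and 412 CPM in PhSpMo explants, against 254 and 276 CPM in control explants (log2 fold change 0.62). The G1 cyclin gene ccnd1.S had 18.8 and 20.5 CPM in PhSpMo explants, against 34.8 and 35.2 CPM in control explants (log2 fold change -0.83), and the mitotic kinase gene aurka.L fell by 0.56 on the log2 scale. Of 35 apoptosis genes, 3 (8.57%) rose and 4 (11.4%) fell, near the 8.22% and 10.5% of all genes. Both copies of bcl2l11, which encodes the pro-apoptotic protein Bim, rose, with log2 fold changes of 1.24 for bcl2l11.S and 0.74 for bcl2l11.L. The survivin gene birc5.1.S had 22.5 and 24.9 CPM in PhSpMo explants, against 52.4 and 55.3 CPM in control explants (log2 fold change -1.18).

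Among the 15 largest rises, several genes encode cell surface and secreted proteins. The complement receptor gene c3ar1.L (LOC101027280) had 136 and 133 CPM in PhSpMo explants, against 9.22 and 9.76 CPM in control explants, and it was also among the 10 largest rises in CPM (log2 fold change 3.83, SE 0.10, adjusted p 7.83e-20). The decoy receptor gene tnfrsf6b.L had 10.4 and 9.43 CPM in PhSpMo explants, against 0.391 and 0.655 CPM in control explants (log2 fold change 4.21). The chloride transporter gene slc26a9.S had 20.7 and 23.0 CPM in PhSpMo explants, against 1.41 and 2.03 CPM in control explants (log2 fold change 3.65). In each, both PhSpMo samples lay far above both controls.

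Smaller in level were the rises of zg16.S (log2 fold change 4.16), of the natriuretic peptide gene nppb.S (3.58), of the hemidesmosome collagen gene col17a1.L (3.38), of the secretin receptor gene sctr.L (3.35), of the nucleotidase gene nt5c3a.L (3.33), of the catalase gene cat.3.S (3.3), of socs4.S (3.13) and of the complement gene c5.2.L (3.1). The tRNA gene trnal-aag (3.55) was not called by DESeq2, and MGC53542 (3.27) is listed under a clone name. The acetylcholine receptor subunit gene chrng.L had 8 counts in PhSpMo explants and 0 in control explants, which makes it at least 2.42-fold higher against a floor of 3 counts over the control group, and its call was lost with DESeq2 and without either control sample.

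Both copies of aplnr, the G protein-coupled receptor of apelin and of Elabela that acts in mesendoderm migration and vessel formation, rose. The copy aplnr.S had 119 and 124 CPM in PhSpMo explants, against 21.8 and 20.9 CPM in control explants (log2 fold change 2.52, SE 0.13, adjusted p 2.45e-13), and aplnr.L had 129 and 136 CPM, against 60.1 and 62.5 CPM (log2 fold change 1.12, SE 0.09). The L copy had the higher control level, and both copies reached similar levels in PhSpMo explants. The ionocyte and ectodermal factor gene foxi1.L had 59.2 and 60.7 CPM in PhSpMo explants, against 15.1 and 13.1 CPM in control explants (log2 fold change 2.10). Both copies of foxi2, a related factor inherited from the egg, rose by log2 fold changes of 1.48 for foxi2.L, a call lost with DESeq2 and with a robust estimate of the spread, and 1.07 for foxi2.S. Both copies of the pluripotency factor gene pou5f3.3 rose, with 264 and 264 CPM in PhSpMo explants, against 135 and 138 CPM in control explants for pou5f3.3.L, whose call was lost with the robust estimate, and a log2 fold change of 1.11 for pou5f3.3.S. Its relative pou5f3.2.L was among the 10 largest falls in CPM.

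**Figure D3:**
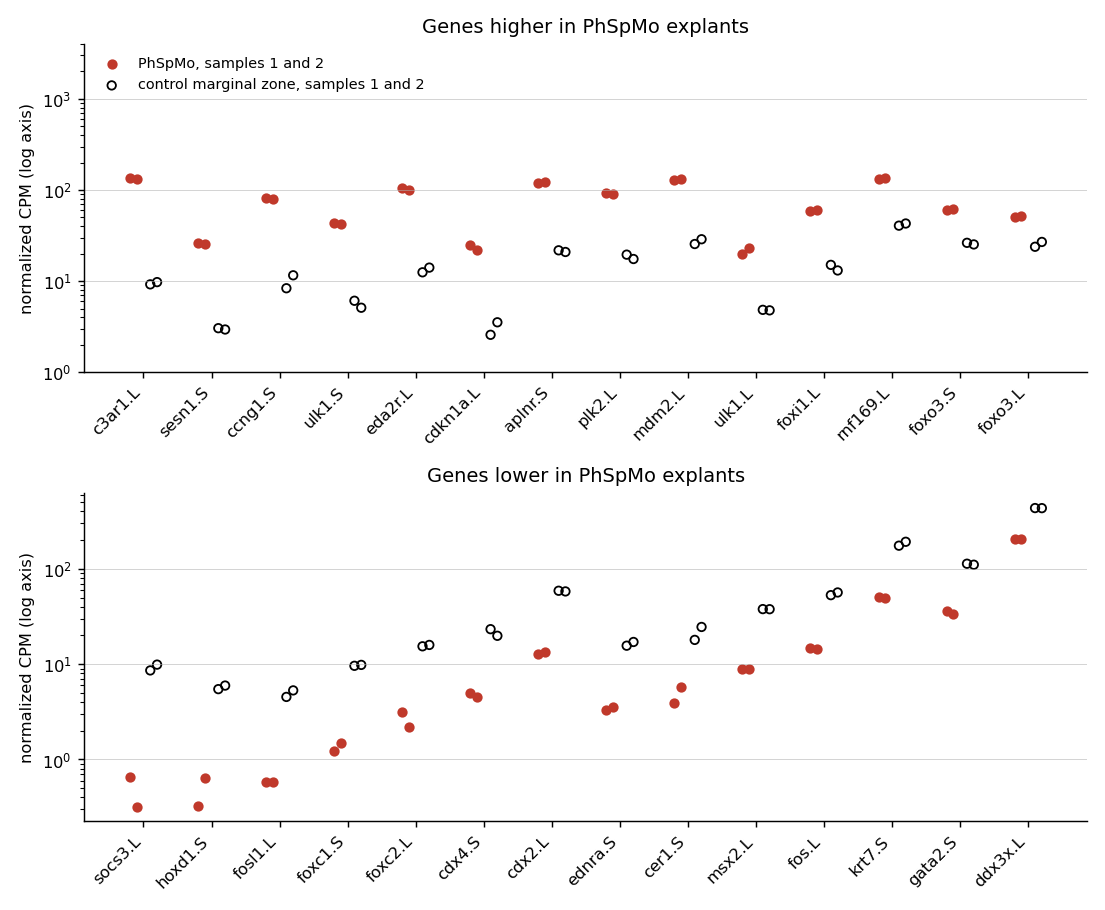
Normalized CPM (log axis) of genes higher (upper panel) and lower (lower panel) in PhSpMo explants, with 1 point per sample; red points are PhSpMo samples 1 and 2 and open points are control marginal zone samples 1 and 2. The 28 genes shown were picked from the called genes, so their PhSpMo samples lie apart from the controls by choice, as did those of 62.4% of all genes tested. Examples are c3ar1.L at 136 and 133 CPM against 9.22 and 9.76 CPM and socs3.L at 0.649 and 0.321 CPM against 8.59 and 9.89 CPM.

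Many genes with large rises were also higher in the arm in which Pinhead was overexpressed. Of the 329 genes at least 2-fold higher in PhSpMo explants, 210 were also at least 2-fold higher in Flag-Pinhead than in control ectoderm explants. That is 63.8% of the PhSpMo list and 13.1% of the 1609 genes at least 2-fold higher in Flag-Pinhead explants, which made up 7.23% of all genes tested. At least 2-fold lower in Flag-Pinhead explants were 3 of the 329 genes (0.912%), near the 0.877% of all genes tested. Over calls of any size the picture was 2-sided: of the 1828 genes called higher in PhSpMo explants, 474 (25.9%) were called higher and 374 (20.5%) lower in Flag-Pinhead explants, against 15.5% and 11.9% of all genes. The comparisons share no sample, though they share the estimate of the spread. Because a gene near 0 in both controls enters the test only through an injected group, the count was repeated on genes with at least 1 CPM in every control sample, a restriction chosen after the values were seen: 101 of 178 such genes (56.7%) were shared, against 3.16% of 17242 genes.

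Of the 12 members of the DNA damage response list that rose in PhSpMo explants, 10 rose in Flag-Pinhead explants too, where 18 of 35 rose and 1 fell. The log2 fold changes of mdm2.L were 2.28 in PhSpMo and 1.96 in Flag-Pinhead explants, those of ccng1.S 3.0 and 2.46, those of cdkn1a.L 2.94 and 2.25, and those of ulk1.S 2.96 and 2.47. For c3ar1.L they were 3.83 and 3.3, and for aplnr.S 2.52 and 3.26. Of the 15 largest rises, 14 were called higher in Flag-Pinhead explants, the exception being trnal-aag. The level required of these 15 genes was an average over all groups, Flag-Pinhead explants included. A gene scarce in the marginal zone could enter through that group, so the count of 14 may owe in part to that choice. In both arms the comparison was between injected explants and untreated ones, so injection and the agent injected cannot be told apart. Of the 504 genes at least 2-fold lower in PhSpMo explants, 19 (3.77%) were at least 2-fold lower and 144 (28.6%) at least 2-fold higher in Flag-Pinhead explants. The shares of all genes tested were 0.877% and 7.23%. Among genes with at least 1 CPM in every control sample, 16 of 327 (4.89%) were at least 2-fold lower and 68 (20.8%) at least 2-fold higher there. The shares of all such genes were 0.812% and 3.16%.

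Immediate early genes, which cells transcribe within minutes of a growth factor or stress signal, were lower in PhSpMo explants. Of 51 tested, 20 (39.2%) fell and 1 (1.96%) rose, against 10.5% and 8.22% of all genes. The list's median log2 fold change was -0.47, and 10 fell by at least 2-fold. Both copies of fos, which encodes a subunit of the AP-1 transcription factor, fell: fos.L (LOC108698676) had 14.7 and 14.6 CPM in PhSpMo explants, against 53 and 56.5 CPM in control explants (log2 fold change -1.90, SE 0.12, adjusted p 5.67e-12), and fos.S had 24.7 and 21.0 CPM, against 55.4 and 62.2 CPM (log2 fold change -1.36). The AP-1 partner gene junb.L had 33.3 and 32.6 CPM in PhSpMo explants, against 85.0 and 85.1 CPM in control explants (log2 fold change -1.36), and fosl1.L had 0.584 and 0.577 CPM, against 4.53 and 5.30 CPM (log2 fold change -3.06). In every one of these genes both PhSpMo samples lay at less than 0.5 times the level of either control. The other copy of fosl1 was not called: fosl1.S had 1.88 and 2.12 CPM in PhSpMo explants, against 2.19 and 1.70 CPM in control explants (log2 fold change 0.06). In Flag-Pinhead explants, 20 of the 51 genes rose and 8 fell, where 15.5% of all genes rose and 11.9% fell.

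Among 49 innate immune and interferon genes, 11 (22.4%) fell and 3 (6.12%) rose, against 10.5% and 8.22% of all genes. The median log2 fold change was 0.00. The deepest falls were in the suppressor of cytokine signalling socs3, a feedback inhibitor of JAK and STAT signalling. The copy socs3.L had 0.649 and 0.321 CPM in PhSpMo explants, against 8.59 and 9.89 CPM in control explants (log2 fold change -4.23, SE 0.34, adjusted p 6.83e-10), and the second gene, listed as socs3, had 1.36 and 0.962 CPM, against 16.3 and 19.8 CPM (log2 fold change -3.95). The interferon regulatory factor gene irf1.L had 0.260 and 0.257 CPM in PhSpMo explants, against 1.8 and 2.29 CPM in control explants (log2 fold change -2.95).

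Components and targets of the signals that pattern the mesoderm fell more often than they rose. Of 96 Wnt pathway genes, 34 (35.4%) fell and 6 (6.25%) rose, against 10.5% and 8.22% of all genes. The list's median log2 fold change was -0.25. The ligand gene wnt8a.L, made in the ventral and lateral marginal zone, had 46.7 and 43.3 CPM in PhSpMo explants, against 112 and 115 CPM in control explants (log2 fold change -1.33, SE 0.10, adjusted p 6.03e-10). The receptor gene fzd10.L had 16.7 and 16.5 CPM, against 38.8 and 41.5 CPM (log2 fold change -1.26), and the secreted Wnt antagonist gene frzb.S had 22.9 and 22.8 CPM, against 62.5 and 58.5 CPM (log2 fold change -1.39). In each, PhSpMo levels lay at roughly 0.4 times the control level. In the other direction, the planar cell polarity genes prickle1.S, prickle1.L and vangl2.S rose, with log2 fold changes of 1.04, 0.49 and 0.43.

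Some caudal and Hox genes fell as well. The caudal gene cdx2.L, a Wnt and FGF target that specifies trunk and tail, had 12.7 and 13.4 CPM in PhSpMo explants, against 58.9 and 58.0 CPM in control explants (log2 fold change -2.15), a call lost with a robust estimate of the spread. Its relative cdx4.S had 5.0 and 4.55 CPM, against 23.3 and 19.8 CPM (log2 fold change -2.16, SE 0.20, adjusted p 7.33e-09). The Hox gene hoxd1, a direct retinoic acid target in Xenopus, fell in both copies: hoxd1.S had 0.325 and 0.642 CPM in PhSpMo explants, against 5.47 and 5.96 CPM in control explants (log2 fold change -3.54), and hoxd1.L had 0.389 and 0.898 CPM, against 6.72 and 6.09 CPM (log2 fold change -3.28). Only 10 of 56 Hox genes in the table were abundant enough to test. By edgeR 3 (30%) fell, both copies of hoxd1 among them, and 0 rose, against 10.5% and 8.22% of all genes. By DESeq2 3 fell and 0 rose as well. In the ectoderm arm hoxd1.S had 11.4 and 9.62 CPM in Flag-Pinhead explants, against 0.102 and 0.115 CPM in control ectoderm explants.

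Of the retinoic acid genes 14 of 29 (48.3%) fell and 2 (6.90%) rose, against 10.5% and 8.22% of all genes. The list's median log2 fold change was -0.43. The gene of the enzyme that makes retinoic acid, aldh1a2.L, had 41.7 and 41.1 CPM in PhSpMo explants, against 65.5 and 71.7 CPM in control explants (log2 fold change -0.72), and rdh10.L, the enzyme of the step before, fell by 0.77 on the log2 scale. The receptor gene rarg.S fell by 0.47, while the gene of the retinoic acid binding protein crabp2.L had 33.3 and 32.4 CPM in PhSpMo explants, against 17.0 and 18.6 CPM in control explants (log2 fold change 0.89).

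Of 62 BMP pathway genes, 26 (41.9%) fell and 5 (8.06%) rose, against 10.5% and 8.22% of all genes. The list's median log2 fold change was -0.31. Several target transcription factors fell: msx2.L had 8.89 and 8.85 CPM in PhSpMo explants, against 37.8 and 37.7 CPM in control explants (log2 fold change -2.08), msx1.L had 17.6 and 16.4 CPM, against 52.9 and 47.2 CPM (log2 fold change -1.54), and ventx1.1.S had 29.5 and 29.4 CPM, against 66.6 and 65.5 CPM (log2 fold change -1.15). The protease gene tll1.L, which cleaves the BMP antagonist Chordin, fell by 1.2 on the log2 scale. The signal transducer genes smad1.L and smad1.S rose slightly, with log2 fold changes of 0.33 and 0.38.

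FGF pathway genes were split, with 18 of 61 (29.5%) lower and 10 (16.4%) higher, against 10.5% and 8.22% of all genes. Receptors differed among themselves. Both copies of fgfr2 rose, with 31.6 and 32.6 CPM in PhSpMo explants, against 14.1 and 13.9 CPM in control explants for fgfr2.S (log2 fold change 1.21) and a log2 fold change of 0.74 for fgfr2.L, whereas fgfr4.L had 109 and 106 CPM, against 152 and 151.2 CPM (log2 fold change -0.49). Feedback inhibitors of ERK signalling fell, with log2 fold changes of -0.62 for dusp5.L and -0.67 for dusp6.S. The ERK-responsive factor gene ets1.S had 40.0 and 40.7 CPM in PhSpMo explants, against 17.4 and 18.7 CPM in control explants (log2 fold change 1.17).

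Of 33 Nodal pathway genes, 8 (24.2%) fell and 5 (15.2%) rose. The head inducer gene cer1.S, a secreted antagonist of Nodal, Wnt and BMP ligands, had 3.96 and 5.77 CPM in PhSpMo explants, against 18.0 and 24.6 CPM in control explants (log2 fold change -2.12), and the ligand gene nodal2.L had 7.46 and 6.93 CPM, against 16.3 and 13.7 CPM (log2 fold change -1.05). The Nodal antagonist dand5 rose in both copies, with log2 fold changes of 0.73 for dand5.L and 0.45 for dand5.S, and so did foxh1.L, a DNA-binding partner of the Nodal transducers (0.52). Of 64 Notch pathway genes, 20 (31.3%) fell and 3 rose. The target genes hes1.L and hes4.S fell by 1.40 and 0.84 on the log2 scale. Of 27 Hedgehog pathway genes, 8 (29.6%) fell and 1 (3.70%) rose, against 10.5% and 8.22% of all genes. The falls included the receptor components gas1.L (log2 fold change -0.85), cdon.L (-0.99) and smo.L (-0.55). The single rise, ihh.L, had 1.49 and 0.513 CPM in PhSpMo explants, against 0.469 and 0.0655 CPM in control explants, and its call was lost without the Flag-Pinhead samples and without control sample 2.

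Eph receptors and ephrins, which guide cell sorting at tissue boundaries, fell in 11 of 21 genes (52.4%) and rose in 1 (4.76%). Of all genes 10.5% fell and 8.22% rose. The ligand gene efnb2.L had 23.0 and 22.6 CPM in PhSpMo explants, against 54.4 and 52.5 CPM in control explants (log2 fold change -1.22, SE 0.10, adjusted p 9.88e-10), and the receptor gene epha4 fell in both copies, with log2 fold changes of -0.85 for epha4.S and -0.99 for epha4.L.

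Transcription factor families were called lower to differing degrees. Of 108 homeobox genes, 43 (39.8%) fell and 3 (2.78%) rose, against 10.5% and 8.22% of all genes. Of the falls 22 were at least 2-fold, and the list's median log2 fold change was -0.52. Of 52 Klf, Sp and Gata genes, 21 (40.4%) fell and 5 (9.62%) rose, and of 60 forkhead genes 12 (20%) fell and 7 (11.7%) rose. The paraxial mesoderm factor gene foxc1 fell in both copies: foxc1.L had 11.9 and 11.9 CPM in PhSpMo explants, against 59.6 and 64.7 CPM in control explants (log2 fold change -2.38, SE 0.13, adjusted p 4.43e-13), and foxc1.S had 1.23 and 1.48 CPM, against 9.61 and 9.82 CPM (log2 fold change -2.83). Its relative foxc2.L had 3.18 and 2.18 CPM, against 15.4 and 15.9 CPM (log2 fold change -2.54). The zinc finger homeobox gene zeb2.S, a repressor of epithelial cadherin, had 5.19 and 4.43 CPM in PhSpMo explants, against 18.5 and 17.0 CPM in control explants (log2 fold change -1.87).

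**Figure D4:**
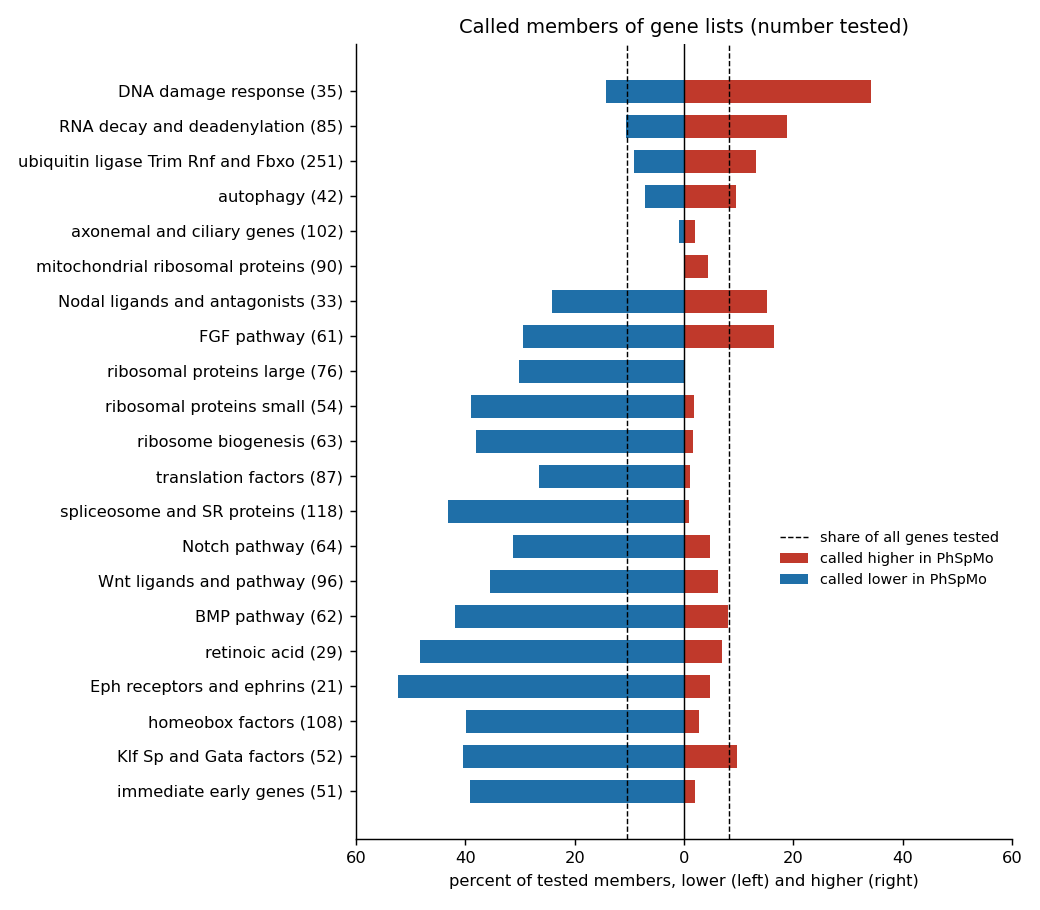
Percent of the tested members of 21 gene lists called lower (blue, left) and higher (red, right) in PhSpMo explants, with the number tested in parentheses; dashed lines mark the share of all genes tested, 10.5% lower and 8.22% higher. The DNA damage response list stands out on the right at 34.3%, and in the 14 lists below Nodal ligands and antagonists more than 26% of members were called lower.

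Some genes expressed in ectoderm fell too, several of them more abundant there than in control marginal zone explants. The epidermal regulator gata2 fell in both copies: gata2.S (LOC108715041) had 36.1 and 33.5 CPM in PhSpMo explants, against 113 and 110 CPM in control marginal zone explants (log2 fold change -1.67, SE 0.08, adjusted p 7.26e-14), and gata2.L had 35.6 and 37.0 CPM, against 91.2 and 92.9 CPM (log2 fold change -1.33). In untreated ectoderm gata2.S had 119 and 115 CPM, close to its level in control marginal zone explants, and gata2.L had 167 and 171 CPM. The keratin gene krt7.S had 50.8 and 49.9 CPM in PhSpMo explants, against 175 and 192 CPM in control marginal zone explants, and krt5.7.L had 122 and 120 CPM, against 262 and 269 CPM (log2 fold changes -1.86 and -1.13). Of 18 keratin genes tested 6 (33.3%) fell and 0 rose, against 10.5% and 8.22% of all genes, with a median log2 fold change of -0.21. By DESeq2 4 fell and 0 rose. In untreated ectoderm explants krt7.S and krt5.7.L had 970 and 1048 CPM and 734 and 794 CPM. The keratin gene krt.S, with 0.260 and 0.0642 CPM in PhSpMo explants, against 1.56 and 1.57 CPM in control marginal zone explants (log2 fold change -3.21), had 86.2 and 89.3 CPM in untreated ectoderm. A gene with no symbol, LOC108698346, singled out after its values were seen, had 19.5 and 20.5 CPM in PhSpMo explants, against 167 and 150 CPM in control marginal zone explants, and 1625 and 1738 CPM in untreated ectoderm.

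Markers of each germ layer were checked as whole lists. Tested mesoderm markers summed to 1646 and 1717 CPM in PhSpMo explants, 2205 and 2109 CPM in control marginal zone explants and 30.1 and 32.2 CPM in untreated ectoderm. Both marginal zone groups thus held these markers at over 50 times their level in ectoderm. Of the mesoderm markers 7 of 10 fell, of the endoderm markers 10 of 11, of the epidermis markers 8 of 10, of the neural markers 5 of 8 and of the organizer markers 3 of 11, and none rose. Of all genes 10.5% fell and 8.22% rose. Epidermis markers summed to 726 and 714 CPM in PhSpMo explants, 1177 and 1152 CPM in control marginal zone explants and 1934 and 1962 CPM in untreated ectoderm. Endoderm markers summed to 494 and 498 CPM in PhSpMo explants, against 761 and 738 CPM in control explants. Fewer cells of a type and less RNA per cell cannot be told apart in bulk RNA, and the part of explant composition in the falls above was not tested. The germ plasm markers, 0 of 5 called, summed to 65.9 and 64.0 CPM in PhSpMo explants, against 64.2 and 63.9 CPM in control explants. Blood markers were at or near 0, with 1 of 8 abundant enough to test and hba1.L and tal1.S at 0 counts in all 4 samples. Of the multiciliated cell and ionocyte markers, 1 of 8 was called, foxi1.L. The list summed to 137 and 137 CPM in PhSpMo explants, against 85.5 and 89.7 CPM in control explants. Most of that difference was foxi1.L itself, with 59.2 and 60.7 CPM in PhSpMo explants, against 15.1 and 13.1 CPM in control explants.

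Not all mesoderm markers moved. Both copies of the T-box gene t (brachyury), a marker of nascent mesoderm, fell, with 178 and 187 CPM in PhSpMo explants, against 326 and 292 CPM in control explants for t.L (log2 fold change -0.75). In contrast to t, eomes was not called in either copy: eomes.L had 222 and 220 CPM in PhSpMo explants, against 206 and 168 CPM in control explants, and eomes.S had 211 and 223 CPM, against 213 and 206 CPM.

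The machinery of RNA processing and protein synthesis shifted down by small amounts in many genes. Of 118 spliceosome and SR protein genes, 51 (43.2%) fell and 1 rose, with a median log2 fold change of -0.18. Ribosomal protein genes of the large subunit fell in 23 of 76 (30.3%) and rose in 0, and those of the small subunit fell in 21 of 54 (38.9%) and rose in 1, both with a median of -0.23. Of 63 ribosome biogenesis genes 24 (38.1%) fell and 1 rose, and of 87 translation factor genes 23 (26.4%) fell and 1 rose. The spliceosome, ribosome biogenesis and translation factor lists had median average levels of 7.65, 6.77 and 6.54 log2 CPM, a range where 20.4% of all genes fell. The large and small subunit lists had medians of 5.37 and 5.70 log2 CPM, a range where 12.2% fell. Scaled to library totals, 36 of 118 spliceosome, 19 of 76 large subunit and 12 of 54 small subunit genes fell. So did 11 of 63 biogenesis and 14 of 87 translation factor genes. On that scaling 13.5% of all genes fell at 6 to 8 log2 CPM and 9.34% at 4 to 6 log2 CPM. The biogenesis and translation factor lists thus lay not far above genes of their level.

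Of 84 RNA helicase and nuclear export genes, 21 fell and 6 rose, and 12 fell and 8 rose with scaling to library totals. The list's median average level was 6.15 log2 CPM, a range where 20.4% of all genes fell and 9.02% rose. With scaling to library totals, 13.5% of all genes fell in that range. The share of falls in this list thus lay near that of genes of its level. Its member ddx3x.L, a DEAD-box RNA helicase gene, had 205 and 206 CPM in PhSpMo explants, against 434 and 433 CPM in control explants (log2 fold change -1.07, SE 0.06, adjusted p 1.89e-12). The splicing regulator gene hnrnpk.L had 366 and 380 CPM in PhSpMo explants, against 546 and 546 CPM in control explants (log2 fold change -0.54), and the translation initiation factor gene eif3a.L had 374 and 365 CPM, against 535 and 558 CPM (log2 fold change -0.56). In CPM the deepest fall among called genes with a symbol and no overlap was that of eef1a-o1, a translation elongation factor gene. It had 1820 and 1854 CPM in PhSpMo explants, against 2907 and 2794 CPM in control explants (log2 fold change -0.62). The cold-inducible RNA-binding protein gene cirbp fell in both copies, with 2180 and 2162 CPM in PhSpMo explants, against 2795 and 2845 CPM in control explants for cirbp.L (log2 fold change -0.37). The hyaluronan synthase gene has1.L had 1985 and 1972 CPM, against 2871 and 2759 CPM (log2 fold change -0.50), and the chaperone gene hsp90ab1.S had 1177 and 1169 CPM, against 1662 and 1681 CPM (log2 fold change -0.50).

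Genes that remove RNA were called higher more often than all genes, and lower about as often. Of 85 RNA decay and deadenylation genes, 16 (18.8%) rose and 9 (10.6%) fell, against 8.22% and 10.5% of all genes. The list's median average level was 5.87 log2 CPM, a range where 13.2% of all genes rose and 12.2% fell. With scaling to library totals 22 rose and 7 fell, and in that range 18.9% of all genes rose and 9.34% fell. The deadenylase subunit gene pan3.S had 135 and 133 CPM in PhSpMo explants, against 60.8 and 59.1 CPM in control explants (log2 fold change 1.17, SE 0.08, adjusted p 4.77e-11), and the nonsense-mediated decay genes smg5.L and smg6.L rose, with log2 fold changes of 0.70 and 0.49. The deadenylase scaffold gene cnot1.L fell by 0.40 on the log2 scale.

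Some groups showed few calls. Of 102 axonemal and ciliary genes 2 rose and 1 fell, of 90 mitochondrial ribosomal protein genes 4 rose and 0 fell, and of 123 nuclear genes of oxidative phosphorylation 2 rose and 9 fell. The 4 mitochondrial ribosomal protein calls were lost with DESeq2. In these lists the share called in each direction lay below that of all genes, 8.22% higher and 10.5% lower. Their median average levels were 2.68, 3.58 and 3.62 log2 CPM, a range where 9.65% of all genes rose and 7.40% fell. The oxidative phosphorylation list, with 7.32% lower, lay near that share of falls.

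The falls with the largest fitted fold changes included genes with almost no counts in marginal zone explants. The level required of the largest changes was an average over all groups, so such genes could pass it through ectoderm. The keratin gene krt12.5.L had 0 counts in PhSpMo explants and 9 in control explants, which makes it at least 3.31-fold lower against a floor of 3 counts over the group. In untreated ectoderm it had 6.39 and 5.43 CPM. On the same floor fucolectin.S, with 0 and 8 counts, was at least 2.94-fold lower and slc26a4l.L, with 0 and 7 counts, at least 2.58-fold lower. For otog.L, with 1 and 14 counts, controls were higher by a ratio of 15.5, with a 95% exact binomial interval of 2.35 to 653 that covers counting error only. For atp6v0d2.L, with 2 and 20 counts, the ratio was 11.0 (2.68 to 97.4), and for adgrf1.L, with 1 and 10 counts, it was 11.0 (1.57 to 479). Each of these 6 calls was lost when control sample 2 was left out, and all but that of atp6v0d2.L with DESeq2.

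Better measured falls of similar rank were those of XB22063314.S, with 1.82 and 2.63 CPM in PhSpMo explants, against 29.0 and 21.6 CPM in control explants (log2 fold change -3.48), and of the Wnt co-receptor inhibitor gene kremen2.S, with 0.454 and 0.385 CPM, against 2.97 and 4.26 CPM (log2 fold change -3.09).

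Homeologs gave a view of each change in a second copy, though the copies are close in sequence and reads may have been assigned to the wrong one. Of 4128 pairs with both copies tested, 145 had both copies called higher, 258 both lower and 40 called in opposite directions. In 1043 pairs 1 copy was called and in 2642 neither. Where both copies were called, 91.0% moved in the same direction. Of the 589 L copies that fell, 43.8% had an S copy that fell and 82.7% an S copy with a negative log2 fold change. Of the 417 L copies that rose, 34.8% had an S copy that rose and 75.3% an S copy with a positive log2 fold change. The median absolute difference of log2 fold changes between copies was 0.23.

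**Figure D5:**
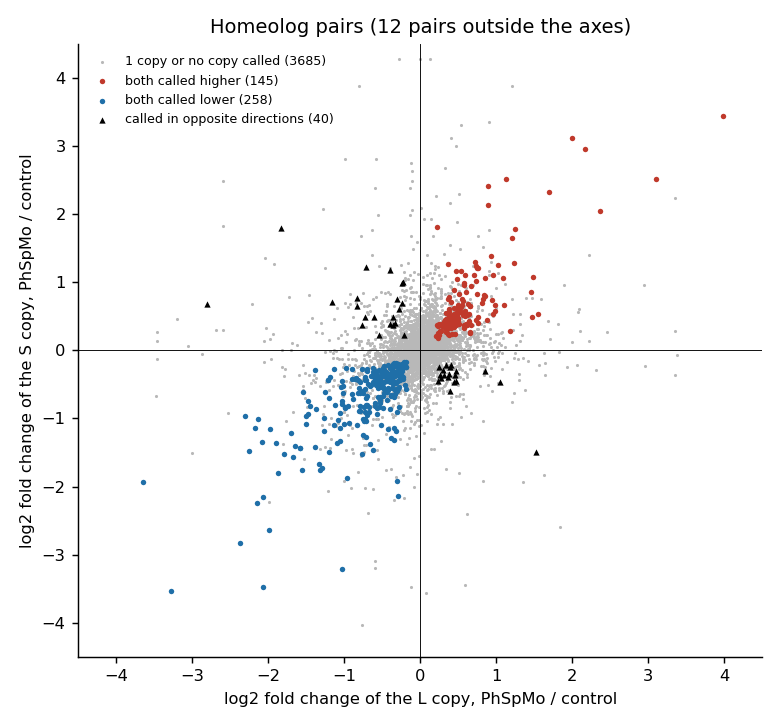
Log2 fold change of the S copy (vertical axis) against that of the L copy (horizontal axis) in 4128 homeolog pairs, PhSpMo over control marginal zone explants; 12 pairs lie outside the axes. Pairs with both copies called fall mostly in the lower left (258, both lower) and upper right (145, both higher), and 40 pairs, shown as triangles, were called in opposite directions.

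Among the pairs called in opposite directions, the AP-1 subunit gene fosl2 differed most. Its L copy had 0.454 and 0.962 CPM in PhSpMo explants, against 2.50 and 2.62 CPM in control explants (fosl2.L, log2 fold change -1.83), while fosl2.S had 4.09 and 4.81 CPM, against 1.17 and 1.38 CPM (log2 fold change 1.8). The lysophosphatidic acid receptor lpar2 was the most abundant of the 5 pairs with the largest difference: lpar2.L had 33.7 and 29.3 CPM in PhSpMo explants, against 51.6 and 52.2 CPM in control explants (log2 fold change -0.71), and lpar2.S had 15.5 and 15.4 CPM, against 6.17 and 7.14 CPM (log2 fold change 1.22). The other three were tril (L copy -2.81, S copy 0.69), znf185 (L copy 1.51, S copy -1.49) and rgs3 (L copy -1.16, S copy 0.72), as log2 fold changes. In each of these pairs the call of the rising copy was lost in an alternative: tril.S without control sample 2, znf185.L without control sample 1, and rgs3.S without control sample 2 and with DESeq2.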

How the data were processed

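Poly(A)-selected RNA of 8 explant samples was sequenced on a HiSeq2000, per the labels' protocols. The authors deposited unnormalized counts of 35649 genes, with 2 columns for each sample, 16 in all. Per the submitters' processing notes, the authors used HTSeq, HISAT2, SAMtools and CASAVA 1.8. The build and the counting options, strand included, were not given in the sources used here, so overlapping antisense genes and near-identical copies cannot be told apart. What the 2 columns are is not stated; they were added. Columns of control marginal zone sample 1 carry mistyped names and were assigned because every other sample has its own columns. Of 24313 LOC identifiers, 11186 were given a symbol from RefSeq (assembly X. laevis v10.1); a few symbols then name 2 rows.

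Counts were tested with edgeR 4.0.16 (R 4.3.3): TMM scaling, filterByExpr with a minimum count of 10, the quasi-likelihood test over 4 groups and Benjamini-Hochberg adjustment over all genes. CPM are normalized by TMM, and SE is the log2 fold change divided by the root of the F statistic. The PhSpMo samples entered as 1 unit among 7. The steps were tested on simulated data. Named genes are pnhd, the 15 largest fold changes and the 10 largest CPM differences in each direction. For these largest changes an average level of at least 1 log2 CPM over all 4 groups, ectoderm included, a symbol and no overlap were required. Up to 5 called members per list and direction and 5 homeolog pairs were named as well. The genes eomes, LOC108698346, sesn1.L, sesn2.S and gadd45b.L were named after their values were seen. Some items are not reported here. Members and the 75 lists were chosen with earlier results of these data known. Alternatives were other scalings, filters, DESeq2 1.42.0, other units and left-out samples.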

Additional observations from a re-analysis of the deposited data

How the results depend on the processing

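Under 14 alternatives no gene called in both fits changed direction. With DESeq2, 2377 genes were called, 812 of them higher and 200 higher by at least 2-fold, and 226 homeolog pairs were called together, against 4153, 1828, 329 and 403 in the main test. Testing the marginal zone samples alone, with the PhSpMo samples as 2 libraries, called 6930 genes (3260 higher, 3670 lower) and 760 pairs. Leaving out single replicates gave 2471 to 3717 genes called, 998 to 1564 higher, 1473 to 2159 lower, 266 to 307 at least 2-fold higher, 385 to 448 at least 2-fold lower and 215 to 363 pairs; the lowest of each came without control marginal zone replicate 2. Of 539 named genes, 87 lost their call with DESeq2, 86 without control replicate 1 and 101 without control replicate 2, and col5a2.S (LOC108703076), at -1.84 in the main test, had a log2 fold change of 0.67 (adjusted p 0.593) without control replicate 2 and -2.66 without control replicate 1, its controls having 0.937 and 9.50 CPM; the cause was not tested. Deviations of same-numbered PhSpMo and control samples correlated at -0.0182 over 22241 genes. This cannot tell if replicate numbers pair the samples, since the PhSpMo samples differ only as columns of 1 sample do. With the replicate block 5372 genes were called, against 5662 in the same 8 libraries without it. The share of PhSpMo genes at least 2-fold higher that were also so in Flag-Pinhead explants was 63.8%, and 56.7% among genes with at least 1 CPM in every control. With 2 control samples and PhSpMo counted once, all p-values rest on the spread of the other groups, whatever the size of the change.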

Other observations

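Among lists of cell guidance and adhesion genes, set against 10.5% of all genes lower and 8.22% higher, 5 of 12 chemokine and receptor genes (41.7%) fell and 0 rose by edgeR, and 3 fell and 0 rose by DESeq2. Both copies of the receptor gene cxcr4 fell, with 62.8 and 70.2 CPM in PhSpMo explants, against 119 and 117 CPM in control explants for cxcr4.S (log2 fold change -0.82, SE 0.09) and a log2 fold change of -0.60 for cxcr4.L, and its ligand gene cxcl12.L had 26.3 and 22.7 CPM, against 42.0 and 43.0 CPM (log2 fold change -0.79). Of 37 semaphorin, plexin and neuropilin genes 11 (29.7%) fell and 5 (13.5%) rose, with a median log2 fold change of 0.02. The ligand gene sema3f.S had 17.9 and 17.4 CPM in PhSpMo explants, against 38.7 and 40.1 CPM in control explants (log2 fold change -1.15), whereas sema4d.S had 36.7 and 35.1 CPM, against 21.3 and 20.8 CPM (log2 fold change 0.78). Of 48 cadherin and protocadherin genes 10 (20.8%) fell and 5 (10.4%) rose, and of 23 integrin genes 3 (13.0%) fell and 0 rose, with a median of -0.07. The paraxial protocadherin gene pcdh8.2.L, which acts in convergent extension of mesoderm, had 51.5 and 49.5 CPM in PhSpMo explants, against 127 and 117 CPM in control explants (log2 fold change -1.26, SE 0.10).

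Of 327 solute carriers 38 (11.6%) rose and 41 (12.5%) fell, near the shares of all genes, and the split varied with the method: 48 rose and 32 fell with scaling to library totals, and 17 rose and 25 fell with DESeq2. Glucose transporter genes fell, with log2 fold changes of -1.0 for slc2a2.L and -0.84 for slc2a1.L. Both copies of the iron exporter gene slc40a1 rose: slc40a1.S had 2.21 and 2.31 CPM in PhSpMo explants, against 0.0781 and 0.655 CPM in control explants (log2 fold change 2.52), and slc40a1.L had 30 counts in PhSpMo and 3 in control explants, a ratio of 9.06 with an interval of 2.82 to 46.4, and its call was lost without control replicate 2. The ferritin gene fth1.S had 62.4 and 70.5 CPM in PhSpMo explants, against 100 and 102 CPM in control explants (log2 fold change -0.60). The endothelin receptor gene ednra.S had 3.31 and 3.59 CPM in PhSpMo explants, against 15.6 and 17.1 CPM in control explants (log2 fold change -2.23).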
